A study of Mus musculus with 12 samples.

Results

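The 31 genes described here encode voltage-gated sodium and calcium channels and the sodium leak channel. They are a list of symbols from 4 gene families (Scn, Cacna1, Cacnb and Cacna2d) together with Nalcn, not chosen by a measured value, and all 31 were found among the 27179 gene IDs of the count tables. By role they are 9 sodium pore genes, 3 sodium beta subunit genes, 10 calcium pore genes, 4 calcium beta subunit genes, 4 calcium alpha2delta genes and Nalcn. RNA was sequenced from hippocampal CA1 tissue and from cultured primary hippocampal neurons of C57BL/6 mice, with 3 libraries in each of 4 groups. The groups were CA1 injected with AAV2-shBrpf1-GFP, CA1 injected with AAV2-scramble-GFP, neurons infected with AAV2-shBrpf1-GFP and neurons infected with AAV2-scramble-GFP. The shBrpf1 virus carries a short hairpin RNA against Brpf1, a chromatin reader that belongs to histone acetyltransferase complexes, and the scramble virus is its control. CA1 was injected at 4 weeks of age and its stage is given as 8 weeks after birth. Neurons were infected on day 3 in vitro. The labels give embryonic day 18 to 19 as their stage but an earlier embryonic day in the culture notes. The study's methods give embryonic ages for dissection that partly overlap the labelled stage. They place experiments on cultured neurons at later days in vitro than infection. The labelled stage is therefore not the age of the neurons at use, and the labels do not give that age. Every group carries a virus that makes green fluorescent protein, and no group is without virus. The study's methods can be read as giving scramble to the left and shBrpf1 to the right CA1, while other passages count mice separately for each virus, and the labels do not say which libraries share a mouse. If the viruses were split by side, virus and side of the brain cannot be told apart in CA1. The study describes 3 pairs of cultures, from batches, and 3 pairs of CA1 tissues. The labels do not say which libraries form a pair or whether replicates were separate cultures or animals. The p-values therefore measure the spread between these libraries only.

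Voltage-gated sodium channels open when the membrane depolarizes and carry the rising phase of the action potential. Each channel has 1 large pore protein, and beta subunits that set its gating and its place in the membrane. Voltage-gated calcium channels turn the same electrical signal into calcium entry, which triggers transmitter release at terminals and gene expression in the cell body. Their pore protein binds a cytoplasmic beta subunit and an extracellular alpha2delta subunit, both of which raise the number of channels at the cell surface. Nalcn carries a steady sodium leak that depolarizes the resting membrane. In the hippocampus these genes shape the excitability of pyramidal cells, and several of them are known to change as neurons mature.

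The libraries held 18330618 to 30275304 counts, of which the 31 genes took 0.118% to 0.381%. Brpf1, the targeted gene, had 28.7, 36.7 and 28.5 CPM (counts scaled to a common library size) in CA1 with shBrpf1, against 40.1, 46.3 and 35.9 CPM in CA1 with scramble. In neurons Brpf1 had 27.1, 49.7 and 32.6 CPM in the libraries labelled shBrpf1, against 23.7, 52.0 and 38.5 CPM in scramble libraries. The log2 fold change of Brpf1 was -0.38 ± 0.18 (SE) in CA1 (unadjusted p = 0.072, edgeR, or 0.038 with the replicate number as a block) and -0.06 ± 0.36 in neurons (unadjusted p = 0.87). A lower Brpf1 level was thus not resolved in the neuron libraries labelled shBrpf1, and neurons with shBrpf1 means here the libraries with that label. By RT-qPCR, a different measure, the study reports a mild knockdown of Brpf1 both in cultured neurons and in injected mice. Summed CPM of 4 CA1 pyramidal markers was 388 to 532 in CA1 with shBrpf1 and 222 to 529.5 in CA1 with scramble, against 76.95 to 128 in neurons with shBrpf1 and 63.4 to 134 in neurons with scramble. All 4 of these markers were higher in CA1 with either virus at an adjusted p under 0.05. The labels name neural progenitor cells as the source of all samples, but the 6 neuronal markers summed to 1828 CPM or more in every library. Summed CPM of 4 progenitor markers was 57.1 to 70.1 in CA1 with shBrpf1 and 53.45 to 61.5 in CA1 with scramble, against 102 to 658 in neurons with shBrpf1 and 168 to 639 in neurons with scramble. Libraries of number 2 in both neuron groups stood apart, with the lowest neuronal marker sums (2635.5 CPM with shBrpf1 and 1828 CPM with scramble) and the highest astrocyte marker sums (6068 CPM and 7707 CPM). CA1 scramble library 1 stood apart by gene length, as described with the CA1 knockdown.

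Across all 4 groups the sodium pore genes fell into 2 tiers. Levels are compared between genes as CPM per kilobase of the deposited gene length, averaged over the 4 groups. Scn2a (26.1 CPM per kb) and Scn8a (23.5) were highest. Both encode channels of the axon initial segment, Scn2a the early form and Scn8a the form of mature axons and nodes of Ranvier. Scn1a (7.60), the sodium channel of fast-spiking interneurons, and Scn3a (5.30), best known from the embryonic brain, followed. Scn7a (0.233), an atypical sodium sensor of glia and neurons, Scn4a (0.134), the skeletal muscle channel, and Scn9a (0.131), the channel of pain-sensing neurons, were far lower. Scn10a and Scn11a, 2 further channels of pain-sensing neurons, had 0 to 6 and 0 to 9 counts per library and did not reach 10 counts in 3 libraries, so they were not tested and 29 of the 31 genes were.

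Scn2a had 322, 249.9 and 206 CPM in CA1 with shBrpf1, 129, 254 and 197 CPM in CA1 with scramble, 369, 130.0 and 266 CPM in neurons with shBrpf1 and 274, 73.6 and 251 CPM in neurons with scramble. All 4 groups overlapped, and the lowest value of each neuron group was in its library of number 2. Scn8a had 465, 391 and 307 CPM in CA1 with shBrpf1, 243, 403 and 302 CPM in CA1 with scramble, 259.6, 108 and 230.3 CPM in neurons with shBrpf1 and 194, 75.9 and 209 CPM in neurons with scramble. CA1 and neuron libraries of the same virus did not overlap for Scn8a.

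Among the sodium beta genes, Scn3b averaged 48.8 CPM per kb over the 4 groups, Scn2b 39.8 and Scn4b 4.86. Scn2b was above every sodium pore gene in CA1, but below Scn2a in neurons with shBrpf1 (23.9 against 29.35 CPM per kb) and in neurons with scramble (20.7 against 23.0 CPM per kb). The summed level of the 3 sodium beta genes divided by that of the 9 sodium pore genes was 1.69 ± 0.19 in CA1 with shBrpf1 (SD, n = 3), 2.19 ± 0.79 in CA1 with scramble, 1.00 ± 0.11 in neurons with shBrpf1 and 0.986 ± 0.019 in neurons with scramble. In each library of CA1 the ratio was above that of every neuron library, with a lowest CA1 value of 1.51 and a highest neuron value of 1.13.

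The calcium pore genes ran in a narrower range. Cacna1a (20.7 CPM per kb, P/Q-type), Cacna1e (18.8, R-type) and Cacna1b (13.02, N-type) encode the channels of presynaptic terminals and dendrites. The T-type genes, whose channels open near rest and support burst firing, were Cacna1h (16.4), Cacna1g (6.12) and Cacna1i (5.83). The L-type genes Cacna1c (8.65) and Cacna1d (5.16) link activity to transcription. The other L-type genes, Cacna1s (0.101) of skeletal muscle and Cacna1f (0.0786) of the retina, were at levels like those of the low sodium pore tier. The neighbours Cacna1a and Cacna1e differed by less than 1 SD of their 3 libraries, with 16.4 ± 4.65 and 14.4 ± 7.84 CPM per kb in neurons with scramble.

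Cacna1a had 211, 185 and 176 CPM in CA1 with shBrpf1, 126, 197 and 191 CPM in CA1 with scramble, 242, 113 and 142 CPM in neurons with shBrpf1 and 163, 90.4 and 136 CPM in neurons with scramble. Cacna1e had 448, 409 and 204 CPM in CA1 with shBrpf1, 62.6, 358 and 199 CPM in CA1 with scramble, 255, 127 and 256 CPM in neurons with shBrpf1 and 262, 71.4 and 215 CPM in neurons with scramble. The groups overlapped for both genes, and the lowest Cacna1e value of the 12 libraries was in CA1 scramble library 1.

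Cacnb3 (52.5 CPM per kb) had the highest length-scaled level of all 31 genes as a mean over the groups, although in CA1 with shBrpf1 Scn3b (71.9 CPM per kb) was above it (70.9). Cacnb1 (35.5) came next among the calcium beta genes, above Cacnb4 (10.8) and Cacnb2 (9.86). Cacnb1 had 124, 93.4 and 101 CPM in CA1 with shBrpf1, 111, 98.6 and 85.0 CPM in CA1 with scramble, 106, 55.0 and 72.7 CPM in neurons with shBrpf1 and 86.7, 37.9 and 74.2 CPM in neurons with scramble. Of the alpha2delta genes, Cacna2d3 (22.3 CPM per kb) and Cacna2d1 (19.2), which is a binding site of gabapentin, were highest, Cacna2d2 (5.06) was lower, and Cacna2d4 (0.374), known from the retina, was close to the low tier. Cacna2d3 had 102, 75.4 and 77.1 CPM in CA1 with shBrpf1, 91.5, 97.0 and 75.6 CPM in CA1 with scramble, 92.5, 55.5 and 92.8 CPM in neurons with shBrpf1 and 96.3, 38.8 and 94.9 CPM in neurons with scramble. Cacna2d1 had 236, 170.1 and 179 CPM in CA1 with shBrpf1, 98.5, 191 and 167 CPM in CA1 with scramble, 211, 89.7 and 92.0 CPM in neurons with shBrpf1 and 159, 51.9 and 77.4 CPM in neurons with scramble. Nalcn (12.7 CPM per kb) had 102, 96.3 and 79.6 CPM in CA1 with shBrpf1, 45.2, 92.4 and 73.8 CPM in CA1 with scramble, 108, 68.9 and 146 CPM in neurons with shBrpf1 and 103, 49.9 and 119 CPM in neurons with scramble. Groups of the same virus overlapped between CA1 and neurons for Cacna2d3, Cacna2d1 and Nalcn.

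**Figure D1:**
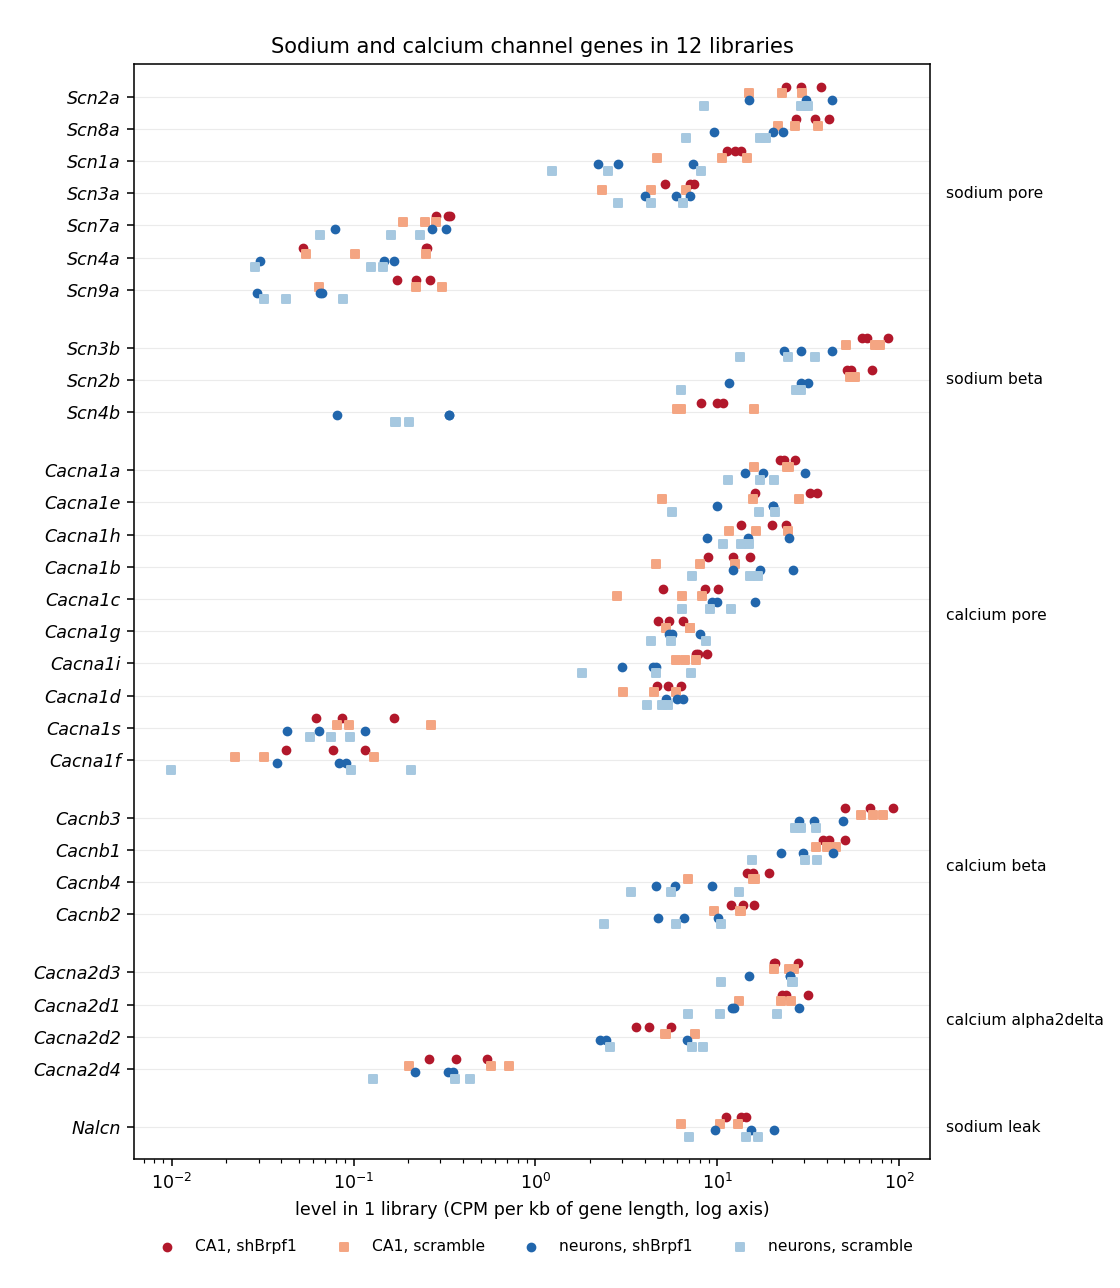
Level of each of the 29 tested channel genes in each of the 12 libraries, as CPM per kb of gene length on a log axis, with genes grouped by role and ordered by level. Scn4b is the gene whose CA1 points (25.6 to 67.1 CPM before length scaling) lie farthest from its neuron points (0.346 to 1.42 CPM), while Scn2a, Nalcn and most calcium pore genes overlap.

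CA1 tissue was then set against cultured neurons within each virus, which asks how the channel genes differ between injected adult tissue and culture. All 3 sodium beta genes were higher in CA1 in the scramble libraries, by 2.70-fold for Scn2b, 2.81-fold for Scn3b and 51.5-fold for Scn4b. Of the 29 tested members 5 were higher in CA1 with scramble at an adjusted p under 0.05 (edgeR quasi-likelihood test with Benjamini-Hochberg adjustment over 17254 genes) and 0 were lower. That is 17.2% of the members, beside 11.1% of all tested genes called higher and 15.5% called lower. With shBrpf1, 4 members (13.8%) were higher and 0 were lower, beside 10.1% and 13.2% of all genes. DESeq2 called 5 members higher with scramble (14.2% of all genes) and 8 with shBrpf1 (12.9% of all genes), and 0 lower with either virus. In edgeR 0 members were lower at an unadjusted p under 0.05. The shares of all genes lower in DESeq2 and at this unadjusted threshold are not given here. The share of members called higher was thus not far above the background, and it moved with single libraries. With scramble it was 8 members without neuron scramble library 1 and 3 without neuron scramble library 2, neuron shBrpf1 library 1, CA1 scramble library 2 or 3, or any CA1 shBrpf1 library. With shBrpf1 it was 9 members without neuron scramble library 2, 7 without neuron scramble library 1, 2 without CA1 shBrpf1 library 2 or 3, and 1 without CA1 shBrpf1 library 1 or neuron shBrpf1 library 2 or 3. Over these fits without a library the share of all genes called higher was 6.96% to 11.3% with shBrpf1 and 7.65% to 11.7% with scramble. The median log2 fold change of the members was 0.57 with scramble and 0.49 with shBrpf1, beside -0.05 for all tested genes with either virus. Tissue, age and culture differ together in this contrast and cannot be told apart, and in bulk RNA fewer cells of a type and less RNA per cell cannot be told apart either.

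Scn4b, whose product is linked to the sodium pore protein by a disulfide bond and supports resurgent sodium current, differed most. Scn4b had 42.4, 34.7 and 45.7 CPM in CA1 with shBrpf1, against 1.42, 1.42 and 0.346 CPM in neurons with shBrpf1. In scramble libraries it had 26.7, 25.6 and 67.1 CPM in CA1, against 0.859, 0.722 and 0.718 CPM in neurons. No CA1 library came near a neuron library. The log2 fold change was 5.21 ± 0.51 (SE) with shBrpf1 (adjusted p = 1.9e-05, edgeR) and 5.69 ± 0.53 with scramble (adjusted p = 1.3e-05). Over all alternatives it stayed between 4.84 and 5.91, with an adjusted p of at most 0.00046. Scn4b is also a gene of striatal projection neurons, and the summed CPM of 6 striatal markers was 78.65 to 109 in CA1 with shBrpf1 and 86.2 to 169 in CA1 with scramble, against 28.7 to 48.0 in neurons with shBrpf1 and 39.7 to 63.6 in neurons with scramble. Of these 6 markers 1 was higher and 2 were lower in CA1 with scramble, and 1 and 1 were higher and lower with shBrpf1. With each virus 1 marker of the 6 had a CA1 library at 0. CA1 scramble library 3, which had the highest Scn4b value, also had the highest sum of 4 thalamic markers among CA1 libraries (272 CPM, against 47.5 to 134 in the others) and the lowest sum of CA1 pyramidal markers (222 CPM). Without that library the Scn4b estimate with scramble was 5.085 on the log2 scale, and the part of these markers in the Scn4b difference was not tested.

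Scn2b and Scn3b showed a smaller difference. Scn3b had 398, 308 and 288 CPM in CA1 with shBrpf1, against 197, 107 and 132 CPM in neurons with shBrpf1. With scramble Scn3b had 338, 360.2 and 234 CPM in CA1, against 159, 61.0 and 113 CPM in neurons. The groups did not overlap, and the log2 fold change was 1.19 ± 0.34 with shBrpf1 (adjusted p = 0.026, edgeR) and 1.49 ± 0.34 with scramble (adjusted p = 0.0079). The scramble call held under all 17 alternatives, and the shBrpf1 call was lost under 4 of 17. Scn2b had 324, 234 and 247 CPM in CA1 with shBrpf1, against 144, 53.0 and 131 CPM in neurons with shBrpf1. With scramble Scn2b had 255, 261 and 244 CPM in CA1, against 124, 28.7 and 131 CPM in neurons. These groups also did not overlap, with log2 fold changes of 1.30 ± 0.49 with shBrpf1 (adjusted p = 0.076, edgeR) and 1.43 ± 0.49 with scramble (adjusted p = 0.048). The scramble call was lost under 12 of 17 alternatives, and the adjusted p ran between 0.011 and 0.11 over all 17.

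Scn2b and Scn4b lie side by side on the same strand of chromosome 9 (GRCm38.p6), Scn2b at chr9:45117876-45130070 and Scn4b at chr9:45138624-45154155, 8553 bases apart. The 250 bases before the annotated start of each are shown because these neighbours were higher in CA1 by different amounts, 2.70-fold and 51.5-fold in scramble libraries. The sequences are from RefSeq on GRCm38.p6, 5′ to 3′ on the plus strand, with each CG dinucleotide, which reads the same on both strands, in capitals.
Scn2b promoter, chr9:45117626-45117875: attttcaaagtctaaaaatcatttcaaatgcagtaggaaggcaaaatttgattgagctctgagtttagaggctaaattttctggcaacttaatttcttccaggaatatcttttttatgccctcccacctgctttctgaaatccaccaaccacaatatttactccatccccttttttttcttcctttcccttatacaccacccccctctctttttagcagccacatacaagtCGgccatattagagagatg
Scn4b promoter, chr9:45138374-45138623: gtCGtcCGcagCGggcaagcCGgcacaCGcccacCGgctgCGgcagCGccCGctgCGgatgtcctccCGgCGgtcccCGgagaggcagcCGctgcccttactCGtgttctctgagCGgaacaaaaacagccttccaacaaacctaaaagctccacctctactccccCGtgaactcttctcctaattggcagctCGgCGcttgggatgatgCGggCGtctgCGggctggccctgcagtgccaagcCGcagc
The Scn2b window holds 1 CG and 38.4% G and C bases, and the Scn4b window holds 23 CG and 66.0%. Of 32851 mouse promoter windows of the same length, 92.13% hold at least 1 CG and 13.31% hold at least 23, and the median is 6. The 35 windows of the 25 members found in the promoter table had a median of 8. The count of CG is a description of these letters only, since methylation was not measured here.

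Among the sodium pore genes 1 passed the adjusted threshold. Scn9a had 2.16, 2.60 and 1.71 CPM in CA1 with shBrpf1, against 0.658, 0.642 and 0.288 CPM in neurons with shBrpf1. With scramble it had 0.630, 2.16 and 3.02 CPM in CA1, against 0.859, 0.314 and 0.419 CPM in neurons, and these 2 groups overlapped. The log2 fold change was 1.99 ± 0.62 with shBrpf1 (adjusted p = 0.036, edgeR) and 1.87 ± 0.62 with scramble (adjusted p = 0.044), and the calls were lost under 7 and 10 of 17 alternatives (adjusted p between 0.0094 and 0.11, and between 0.014 and 0.17). Scn9a shares exon bases with the antisense gene Gm13629, and the strand setting of the counting is not given in the sources used here, so reads from the 2 cannot be told apart. Scn8a did not overlap between CA1 and neurons of either virus, but its log2 fold change of 0.96 ± 0.40 with shBrpf1 (adjusted p = 0.11, edgeR) and 0.99 ± 0.40 with scramble (adjusted p = 0.091) missed the threshold. Scn1a had estimates of 1.59 ± 0.65 and 1.33 ± 0.64, also short of it (adjusted p = 0.10 and 0.15). Scn2a (0.02 ± 0.47 and -0.04 ± 0.48) and Scn3a (0.21 ± 0.38 and -0.02 ± 0.38) had estimates near 0 with shBrpf1 and with scramble.

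Among the calcium channel genes 1 passed the adjusted threshold, the beta subunit gene Cacnb3. Cacnb3 had 216, 157 and 290.0 CPM in CA1 with shBrpf1, against 152, 87.6 and 106 CPM in neurons with shBrpf1. With scramble it had 255, 192 and 225 CPM in CA1, against 89.5, 83.8 and 108 CPM in neurons. The groups did not overlap, with log2 fold changes of 0.94 ± 0.27 with shBrpf1 (adjusted p = 0.025, edgeR) and 1.26 ± 0.27 with scramble (adjusted p = 0.0051). The scramble call held under all 17 alternatives, and the shBrpf1 call was lost under 5 of 17. The other 3 beta genes had estimates of 0.45 to 1.33 with shBrpf1 and 0.57 to 0.97 with scramble, and none passed the adjusted threshold. No calcium pore gene passed it. Cacna1b was estimated at -0.61 ± 0.41 with shBrpf1 and -0.64 ± 0.41 with scramble, and Cacna1c at -0.59 ± 0.39 and -0.65 ± 0.39, against 1.01 ± 0.37 and 0.59 ± 0.37 for Cacna1i. The 4 alpha2delta genes ranged between 0.08 and 0.57 with shBrpf1 and between -0.01 and 0.68 with scramble, and Nalcn was at -0.21 ± 0.36 and -0.35 ± 0.36. In the scramble contrast the libraries of 5 members, Scn4b, Scn3b, Scn2b, Cacnb3 and Scn8a, lay wholly above those of neurons and 0 lay wholly below, beside 19.3% and 21.7% of all tested genes.

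**Figure D2:**
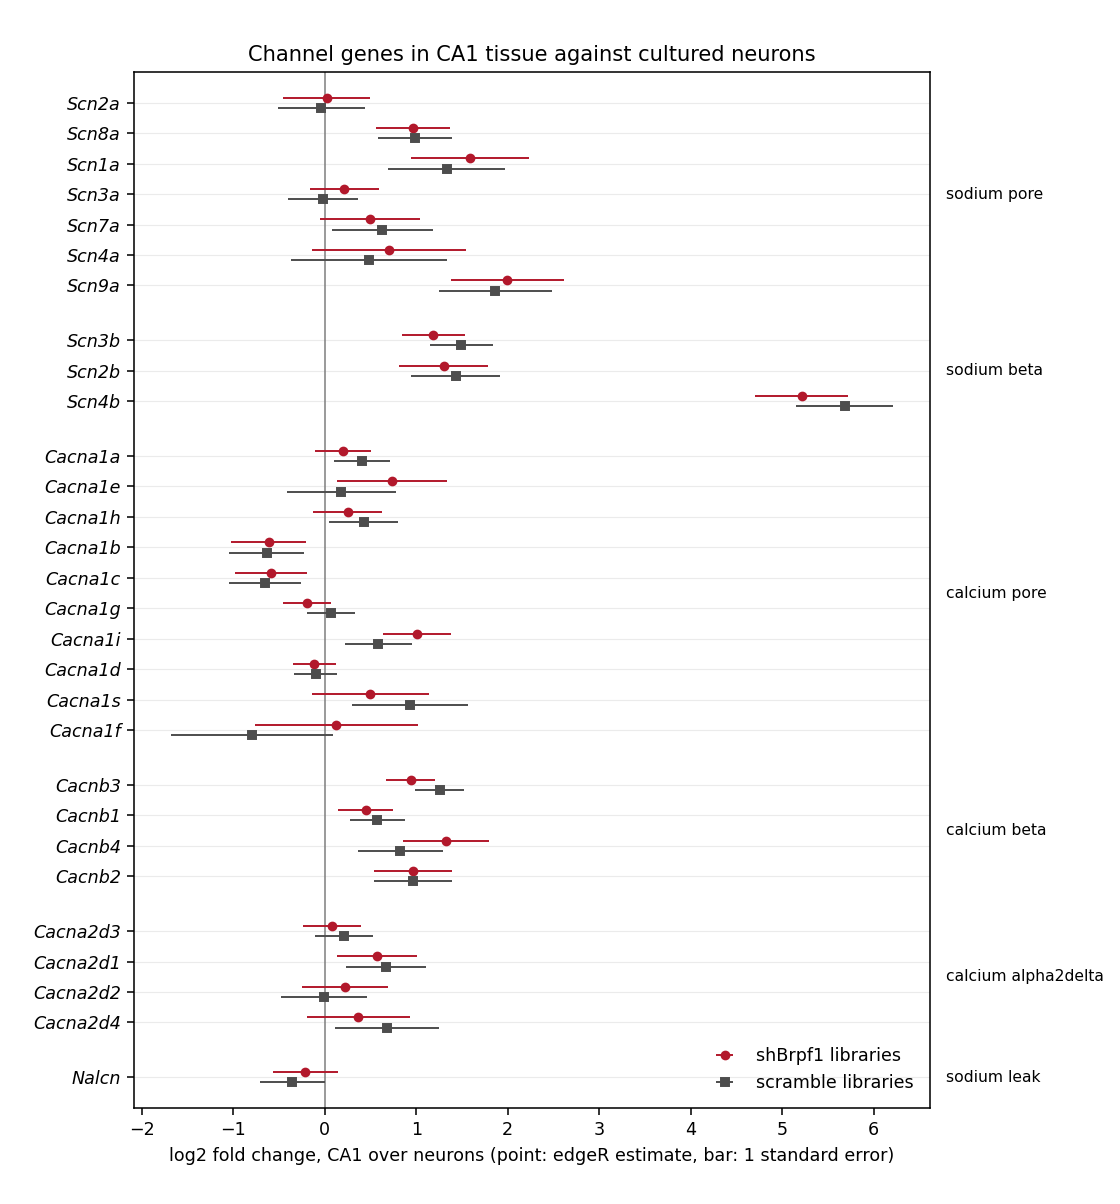
Log2 fold change of CA1 over neurons for the 29 tested channel genes, with the shBrpf1 libraries in red circles and the scramble libraries in grey squares, and 1 standard error as the bar. Scn4b stands at 5.21 and 5.69, the other sodium beta genes between 1.19 and 1.49, and the calcium pore genes between -0.80 and 1.01.

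Cell type markers and gene length moved with this contrast. Summed CPM of 6 oligodendrocyte markers was 5323 to 9219 in CA1 with shBrpf1 and 8401 to 11900.3 in CA1 with scramble, against 61.4 to 986 in neurons with shBrpf1 and 147 to 904 in neurons with scramble, and 5 of 6 were called higher with either virus. All 6 microglial markers and 4 of 5 endothelial markers were also called higher in CA1 with either virus, while 2 of 6 astrocyte markers were called lower and none higher. The neuronal list gave 2 of 6 higher and 1 lower with scramble, and 2 higher and 2 lower with shBrpf1. Summed CPM of 3 excitatory neuron markers was 5227 to 7786 in CA1 with shBrpf1 and 6524 to 7028 in CA1 with scramble. In neurons it was 1702 to 3911 with shBrpf1 and 1323 to 2275 with scramble. With either virus 1 of these 3 was called higher and 0 lower, and 0 of 3 GABAergic markers were called. Genes of 5 kb or more, which 22 of the 29 tested members are, had a median log2 fold change of -0.18 with shBrpf1 and -0.37 with scramble. With the trend in gene length removed, 7 members were higher with shBrpf1 (11.0% of all genes) and 8 with scramble (11.7% of all genes). Among them were Scn8a and Cacna1i with both viruses. In that fit 0 members were lower, and the share of all genes lower is not given here. The part of these cell types in the channel gene differences was not tested.

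The make-up of each class was compared apart from its level. Each gene's share of its class was taken as its CPM per kb over the class sum in the same library, which sets the level of the whole class aside. Scn2a took 37.1%, 34.3% and 35.0% of the sodium pore sum in CA1 with shBrpf1, against 52.8%, 48.0% and 51.0% in neurons with shBrpf1. With scramble it took 34.0%, 35.3% and 32.9% in CA1, against 49.5%, 43.3% and 53.0% in neurons. Scn8a went the other way, with 41.2%, 41.2% and 40.0% in CA1 with shBrpf1 against 28.5%, 30.6% and 33.9% in neurons, and with 49.1%, 43.0% and 38.8% in CA1 with scramble against 26.9%, 34.2% and 33.9% in neurons. Neither gene's groups overlapped with either virus. Shares of a class sum to 100%, so a higher share of Scn8a and Scn1a lowers that of Scn2a by construction, and the Scn2a level itself had estimates near 0.

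Among calcium pore genes Cacna1b took 12.04%, 10.2% and 10.52% in CA1 with shBrpf1, against 19.1%, 16.4% and 19.1% in neurons with shBrpf1. With scramble it took 7.72%, 10.48% and 9.70% in CA1, against 15.85%, 13.3% and 18.0% in neurons. Cacna1c averaged 7.01% against 11.8% with shBrpf1 and 6.42% against 11.2% with scramble, and Cacnb1 averaged 30.2% of its class against 38.3% and 29.2% against 37.3%. Of 22 shares tested, 11 did not overlap between CA1 and neurons with shBrpf1 and 7 did not with scramble. Each such share had an exact permutation p of 0.1 (two-sided), the smallest that 3 against 3 libraries can give, and an adjusted p over the 22 shares of 0.20 with shBrpf1 and 0.31 with scramble, so no share passed a threshold. Between the viruses, 1 of 22 shares (Cacna2d1 within the alpha2delta class) did not overlap in CA1 and 0 did not in neurons.

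**Figure D3:**
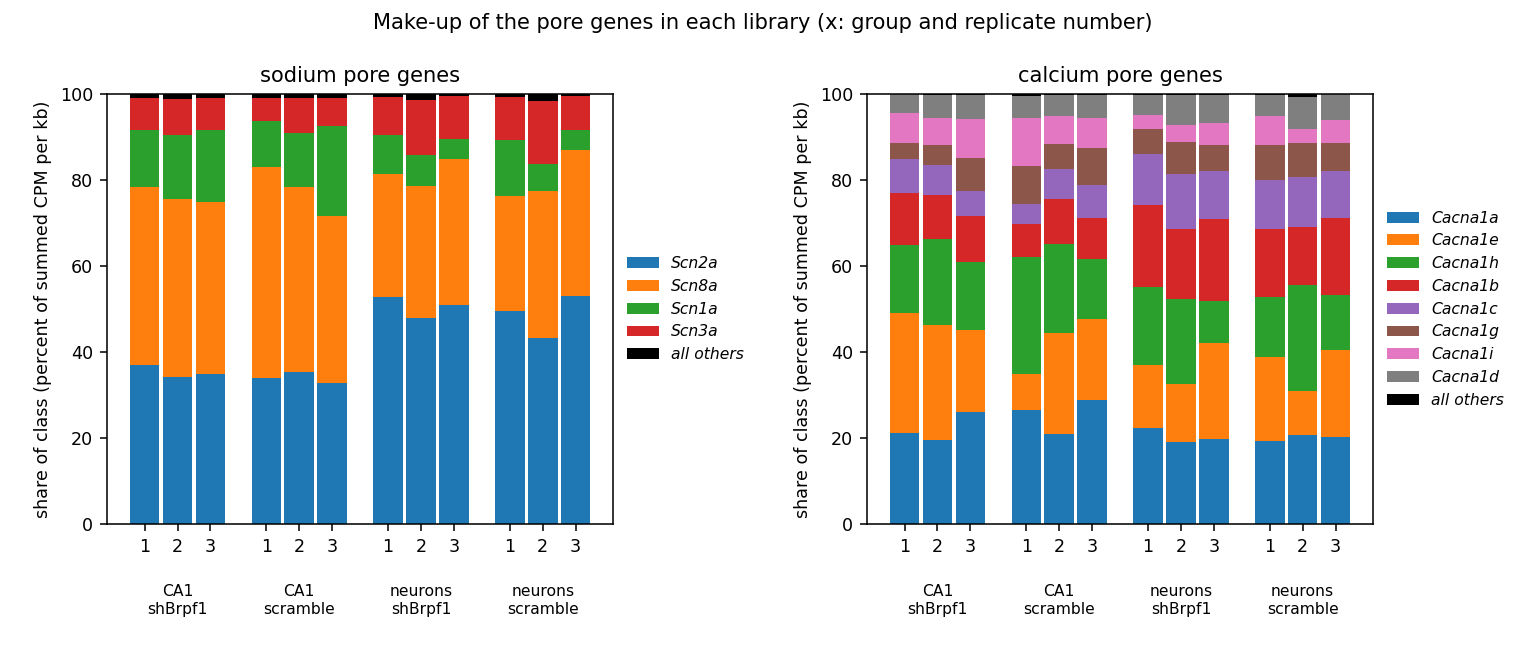
Share of each pore gene in the summed CPM per kb of its class, as stacked bars for each of the 12 libraries. Scn2a takes 32.9% to 37.1% of the sodium pore sum in CA1 libraries and 43.3% to 53.0% in neuron libraries, and the Cacna1b and Cacna1c bands are narrower in CA1.

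The knockdown comparison in neurons asks which channel genes differ with the shBrpf1 virus in culture. No channel gene was resolved by the comparison of group means. Of 29 tested members 0 had an unadjusted p under 0.05 in edgeR, beside 0.0747% of 16066 genes. DESeq2 also gave 0, but its share of all genes is not given here. No member's groups were apart, beside 0.647% of all genes wholly higher and 0.909% wholly lower. The median log2 fold change of the members was 0.23, beside -0.01 for all genes, and 23 of 29 were above 0. The members with the lowest p were Cacna1d, Cacna1b, Cacna1c and Cacnb3. Cacna1d had 60.2, 48.1 and 55.7 CPM in the libraries labelled shBrpf1, against 49.2, 37.9 and 46.0 CPM with scramble. Cacna1b had 190.3, 88.9 and 126 CPM, against 123, 53.1 and 110.3 CPM with scramble, and Cacna1c had 146, 84.9 and 90.1 CPM, against 108, 58.2 and 82.2 CPM. Within each numbered pair all 3 genes were higher in the library labelled shBrpf1. The groups overlapped all the same, and the log2 fold changes were 0.30 ± 0.19, 0.50 ± 0.40 and 0.37 ± 0.32, with 0.30 ± 0.26 for Cacnb3. The study names Cacnb2 among its upregulated neuron genes (log2 fold change of at least 1, unadjusted p under 0.05, DESeq2). Here Cacnb2 had 44.9, 21.1 and 29.1 CPM in the libraries labelled shBrpf1, against 46.55, 10.65 and 26.4 CPM with scramble. Its log2 ratios within pairs were -0.05, 0.95 and 0.14, so the study's call was not seen in this comparison.

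The study's methods describe pairs of cultures, and neuron libraries of the same number deviated together from their group means. Their correlations were 0.58, 0.89 and 0.85 for numbers 1, 2 and 3 over all tested genes. The comparison of group means leaves such pairing out, so a fit with the replicate number as a block was set beside it. With the replicate block 10 of 29 members (34.5%) were higher at an unadjusted p under 0.05 in edgeR and 0 were lower, beside 3.14% of all genes higher and 1.76% lower. No member passed the adjusted threshold (the lowest adjusted p was 0.85). The 10 were 4 calcium pore genes, Cacna1b (0.52 ± 0.13, unadjusted p = 0.0077), Cacna1c (0.37 ± 0.11), Cacna1d (0.30 ± 0.09) and Cacna1a (0.31 ± 0.13), with Cacna2d1 (0.48 ± 0.13) and Nalcn (0.28 ± 0.11). The sodium channel genes among them were Scn3b (0.44 ± 0.14), Scn2a (0.44 ± 0.16), Scn3a (0.35 ± 0.11) and Scn8a (0.35 ± 0.12). Each of the 10 was higher in the library labelled shBrpf1 in all 3 pairs, as were 485 of the 504 genes called higher by that fit, so this adds nothing to the calls. In all, 12 of 29 members (41.4%) were higher in all 3 pairs, beside 15.5% of all tested genes, and 1 member (Cacna2d2) was lower in all 3, beside 13.2%. DESeq2 with the block also gave 10 members, 9 higher (2.94% of all genes) and Cacna2d2 lower.

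Values that moved with these libraries were of several kinds. Neuronal markers summed to 4603.5, 2635.5 and 3799 CPM in the libraries labelled shBrpf1, against 3897, 1828 and 3769 CPM with scramble, higher in each pair, and 6 of 6 had an estimate above 0 with the block (1 at an unadjusted p under 0.05). GABAergic markers summed to 552, 156 and 274 CPM, against 855, 103 and 297 CPM with scramble, lower in pairs 1 and 3 and higher in pair 2. With the block 1 of 3 GABAergic markers had an estimate above 0 and 0 were called. Astrocyte markers summed to 3289, 6068 and 3426 CPM, against 5414, 7707 and 3470 CPM with scramble, lower in each pair, and 0 of 6 had an estimate above 0. With the block 2 of 4 progenitor markers were lower at an unadjusted p under 0.05 and 0 of 4 had an estimate above 0. The median was -1.18 for 3 oligodendrocyte precursor markers and -0.70 for 6 oligodendrocyte markers, with 0 of either list called. In pair 3 these sums were higher in the library labelled shBrpf1: 658 against 639 CPM for progenitor, 1631.5 against 1523 CPM for precursor and 986 against 904 CPM for oligodendrocyte markers. The part of these cell types in the channel gene differences was not tested. Of the 10 members 9 were 5 kb or longer, and with the block 7.50% of all genes of that length were called higher, against 0.848% of genes under 2 kb. With the length trend removed as well, 5 members were higher at an unadjusted p under 0.05 (2.74% of all genes): Scn3a, Scn3b, Cacna1b, Cacna1c and Cacna2d1. Of the 29 members 21 had their lowest level in the library of number 2 in both neuron groups. The median of members without the block depended on single libraries: it was -0.026 without scramble library 2, -0.052 without shBrpf1 library 1 and 0.52 without scramble library 1. Without shBrpf1 library 3, 1 member had an unadjusted p under 0.05 in the fit without the block (0.762% of all genes).

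Cacna2d2 had the lowest estimate in neurons, -0.66 ± 0.57 without and -0.67 ± 0.38 with the block. It had 13.5, 12.5 and 37.9 CPM in the libraries labelled shBrpf1, against 46.1, 14.2 and 40.0 CPM with scramble, with the widest gap in pair 1.

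In CA1 no channel gene was resolved either. Of 29 members 0 had an unadjusted p under 0.05 in edgeR, beside 1.15% of 16022 genes. DESeq2 also gave 0, but its share of all genes is not given here. The libraries of 1 member, Scn7a, lay wholly higher with shBrpf1 (2.42, 2.48 and 2.09 CPM, against 1.80, 1.38 and 2.08 CPM with scramble) and 0 lay wholly lower, beside 2.67% and 2.62% of all genes. The median log2 fold change of members was 0.26, beside 0.01 for all genes, and 23 of 29 were above 0. The members with the lowest p were Cacna2d2 (-0.41 ± 0.23), Cacna1i (0.26 ± 0.16), Scn3a (0.55 ± 0.36) and Scn2a (0.42 ± 0.28), with unadjusted p between 0.11 and 0.16. Cacna2d2 had 23.2, 30.9 and 19.8 CPM with shBrpf1, against 41.7, 28.8 and 28.4 CPM with scramble. Cacna1i had 85.8, 74.7 and 76.4 CPM, against 65.4, 74.7 and 58.0 CPM with scramble. Scn3a had 71.0, 68.0 and 49.0 CPM, against 22.3, 64.2 and 41.4 CPM with scramble. All of these groups overlapped, and the lowest Scn3a value was in scramble library 1.

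**Figure D4:**
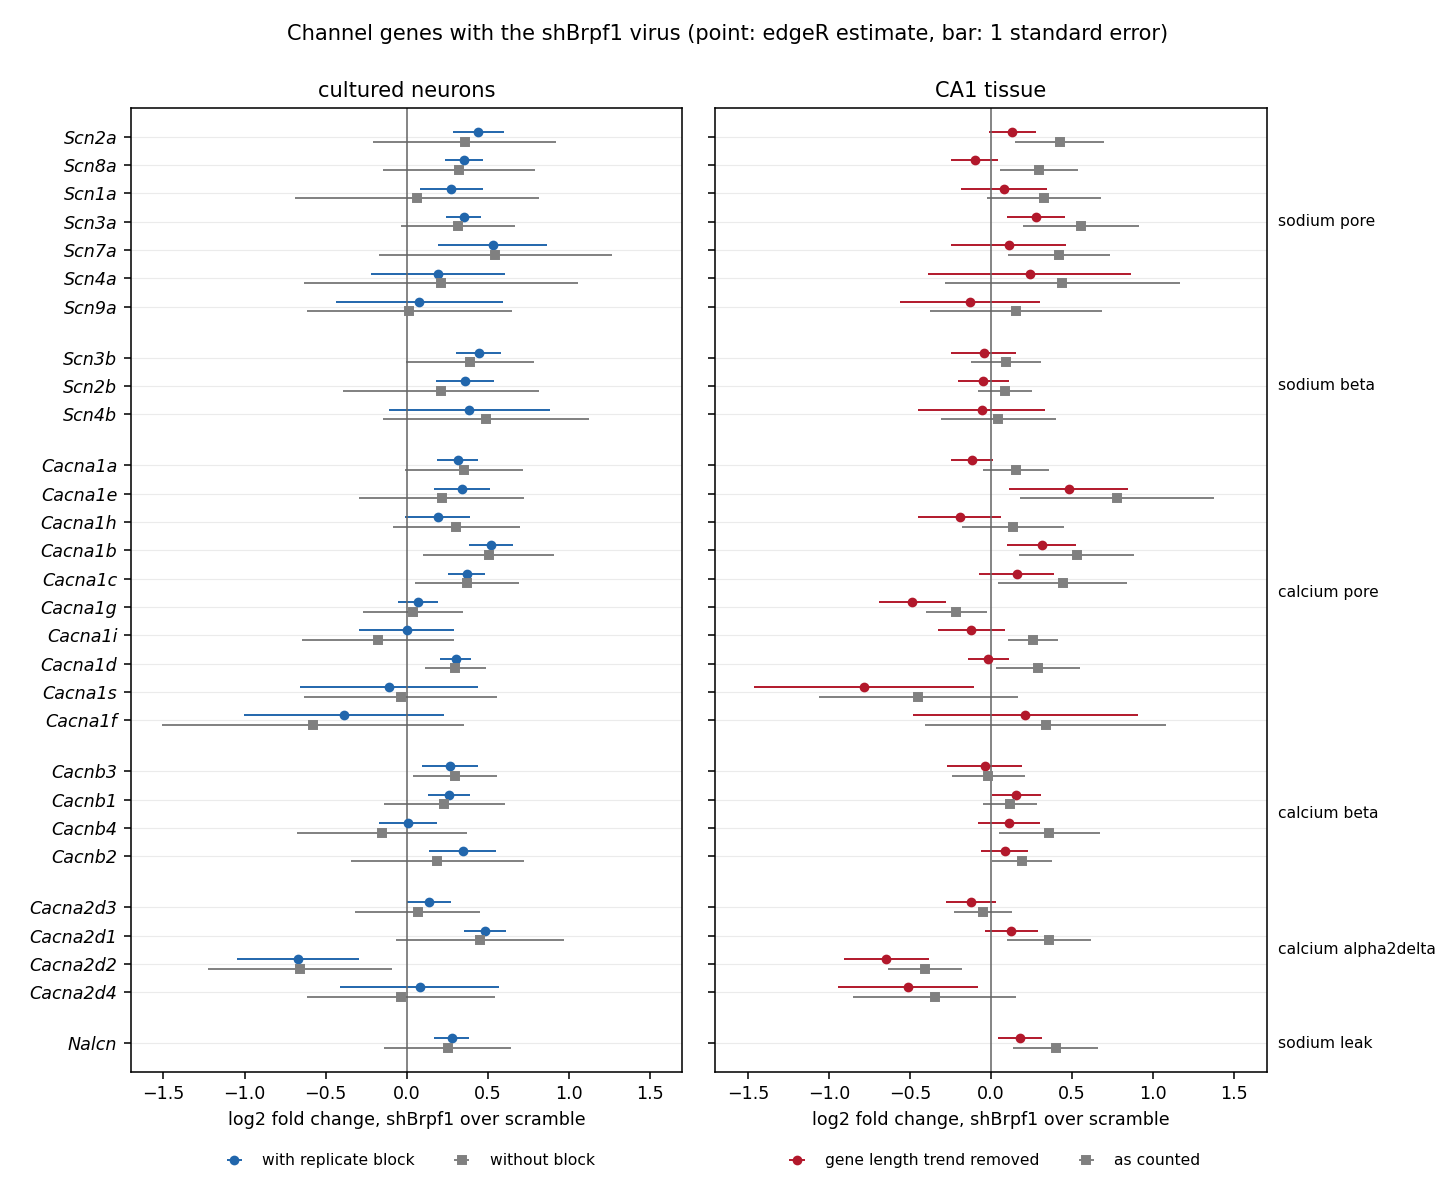
Log2 fold change of shBrpf1 over scramble for the 29 tested channel genes, in neurons (with the replicate block in blue circles, without it in grey squares) and in CA1 (with the gene length trend removed in red circles, as counted in grey squares), with 1 standard error as the bar. The block narrows the bars in neurons around nearly the same estimates, and removing the length trend in CA1 gives a median of the members of -0.017, against 0.26 as counted.

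The CA1 estimates followed gene length. Genes of 5 kb or more had a median log2 fold change of 0.23 in CA1, those of 2 to 5 kb 0.02 and those under 2 kb -0.17. The length-class medians of scramble library 1 departed from the mean of the 6 CA1 libraries by 0.25 under 2 kb and by -0.41 at 5 kb or more, and the channel genes departed by -0.50 in it. With the length trend removed the median of the members was -0.017, 14 of 29 were above 0, and 2 were lower at an unadjusted p under 0.05 in edgeR (0.481% of all genes), Cacna1g at -0.48 and Cacna2d2 at -0.65. Without scramble library 1 the median was 0.09. Without scramble library 2 the median was 0.33 and 6 members were higher at an unadjusted p under 0.05 (5.49% of all genes): Scn2a, Scn3a, Cacna1b, Cacna1d, Cacna1e and Nalcn. Without scramble library 3 or shBrpf1 library 2, 1 member had an unadjusted p under 0.05 (0.996% and 2.03% of all genes). Ratios of same-numbered CA1 libraries had member medians of 0.72, -0.02 and 0.04. CA1 libraries of the same number did not deviate together, and with the number as a block 0 members had an unadjusted p under 0.05 and the median was 0.31. Choroid plexus markers, of which 5 were summed, also varied within the groups, at 36.5, 3204 and 211 CPM with shBrpf1, against 4904, 35.95 and 1176 CPM with scramble, and 2 of 5 had estimates above 0. Their part in the channel gene values was not tested.

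**Figure D5:**
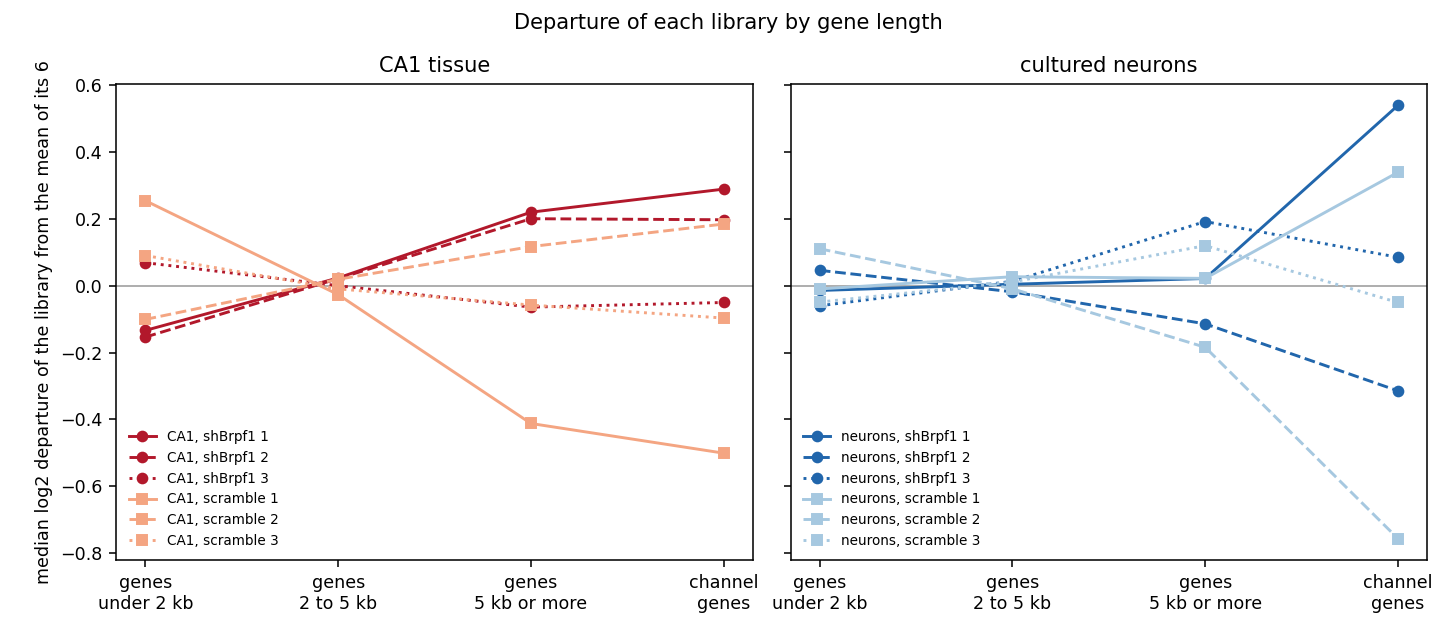
Median log2 departure of each library from the mean of the 6 libraries of its experiment, for genes of 3 length classes and for the 29 tested channel genes. CA1 scramble library 1 departs by -0.41 for genes of 5 kb or more and by -0.50 for the channel genes, while neuron libraries of number 2 depart by -0.31 (shBrpf1) and -0.76 (scramble) for the channel genes and by -0.11 and -0.18 for genes of 5 kb or more.

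The difference between the knockdown effects in CA1 and in neurons was tested as an interaction over all 12 libraries. Of 29 members 0 had an adjusted p under 0.05 and 0 had an unadjusted p under 0.05 in edgeR, beside 0.336% of 17254 genes, and DESeq2 gave 0 adjusted calls. The member estimates ran between -0.47 for Scn4b and 0.92 for Cacna1f. The contrasts share libraries with each other, so they are not independent.

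A list of 25 partner genes was followed, with genes of proteins that bind these channels and genes of the gamma family (Cacng). Of these 25, 24 were found and 1, Fam155b, was not analysed. In CA1 over neurons 5 partners were higher and 1 was lower with scramble at an adjusted p under 0.05 in edgeR, and 6 were higher and 1 lower with shBrpf1, beside 11.1% of all genes higher and 15.5% lower with scramble and 10.1% and 13.2% with shBrpf1. Cacng4 and Cacng8 encode transmembrane regulators of AMPA receptors in the gamma family. On the log2 scale Cacng4 fell by 1.73 ± 0.44 (SE) with shBrpf1 and by 2.17 ± 0.45 with scramble (adjusted p = 0.015 and 0.0044, edgeR). Cacng8 was 1.16 ± 0.33 higher with shBrpf1 and 1.39 ± 0.33 higher with scramble (adjusted p = 0.025 and 0.0098, edgeR). Stac2, which encodes an adaptor of L-type channels, was 3.35 ± 0.81 higher with shBrpf1 (adjusted p = 0.012) and estimated at 1.92 ± 0.76 with scramble (adjusted p = 0.083).

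With the shBrpf1 virus, no partner passed an adjusted threshold in edgeR. In CA1 the lowest p was that of Cacng5, at -1.10 ± 0.28 (unadjusted p = 0.0039, adjusted p = 0.93), followed by Unc80 (0.59) and Fgf14. Cacng5 was the only partner of 24 at an unadjusted p under 0.05, beside 1.15% of all genes. In neurons 0 of 24 partners had an unadjusted p under 0.05 without the block, beside 0.0747% of all genes. Stac2 (-1.55), Fgf13 (0.59) and Cacng7 had the lowest p there. With the replicate block 4 of 24 were higher at that threshold, beside 3.14% of all genes and 7.50% of those of 5 kb or more: Fgf13 (0.48 ± 0.18), a fibroblast growth factor homologue that binds sodium channels, Ank3 (0.33 ± 0.13), which anchors them at the axon initial segment, Unc80, an accessory protein of the Nalcn channel, at 0.40 ± 0.10 (unadjusted p = 0.0065), and Rims1 (0.34 ± 0.10), a presynaptic scaffold that binds calcium channels. Cacng4 was lower at that threshold, at -0.47 ± 0.18, beside 1.76% of all genes called lower. Fgf14, which the study also names as upregulated in neurons, was at 0.39 ± 0.53 without the block (unadjusted p = 0.49, edgeR). With the block it was at 0.48 ± 0.24 (unadjusted p = 0.099, edgeR).

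By position, 5 sodium pore genes lie in 1 cluster on chromosome 2, at chr2:65457118-66784910 (GRCm38.p6), in the order Scn3a, Scn2a, Scn1a, Scn9a and Scn7a. These neighbours differed in level from 26.1 CPM per kb for Scn2a to 0.131 for Scn9a, and Scn9a lies 39242 bases from Scn1a. Cacna1c and Cacna2d4 lie 39139 bases apart on chromosome 6, with 8.65 and 0.374 CPM per kb. The deposited lengths of the 31 genes were 2.455 to 12.7 kb with a median of 7.29 kb, beside a median of 2.778 kb for all tested genes. Exons of 9 members overlap an antisense gene in GENCODE release M21, such as Cacna1d with Chdh and Cacna1h with Tpsg1, and 0 overlap a gene on their own strand.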

How the data were processed

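RNA of 12 libraries was compared in 4 groups taken from the sample labels. Per the study's methods the authors trimmed and aligned the reads (STAR) and used StringTie for known genes; the labels give mm9 as the build and the methods another genome release, which do not match, and tool versions and strand settings are not given in the sources used here. Each deposited table holds raw whole-number counts, with no normalization, and a gene length (a value of another kind, in bases). There were 2 blank extra columns, which were not used. Gene IDs were named by RefSeq (GRCm38.p6), which left 1904 IDs with 2.46% of counts unnamed and tested under their numbers.

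Genes that reached 10 counts in 3 or more libraries were fitted with edgeR 4.0.16 (TMM, robust quasi-likelihood, R 4.3.3), on 6 libraries for each knockdown and on all 12 for the other contrasts. Levels are CPM from TMM-scaled totals of all 12 libraries, and ratios within pairs and departures of libraries are on the log2(CPM + 0.5) scale. DESeq2 1.42.0, its size factors, no filter, a replicate block, a lowess trend on gene length (span 0.3) and leaving out each library were alternatives. Scripts were tested on simulated data with 200 changed genes. Neuron libraries of the same number deviated together (correlations 0.58 to 0.89, others -0.73 to -0.22), and CA1 libraries did not (-0.36, 0.19 and 0.35). Each group was centred on its own mean, so high same-number correlations push the others to negative values. The labels themselves name no pairs. Shares of a class were tested with exact permutation tests.

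Values of every library are given for members called in a contrast (or the 4 with the lowest p in each knockdown), for the 2 highest per class by length-scaled level, and for Nalcn; partners are named when among the 3 lowest p of a contrast, except 1 that is not reported here. Some other members are named for their values after these were seen, and Cacnb2 in neurons because the study names it. The members were taken by symbol and not by a measured value, but the members, lists and tests were chosen with earlier results of these data known.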

Additional observations from a re-analysis of the deposited data

How the results depend on the processing

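Of 269 alternative values of single named genes, 216 kept their direction and side of the threshold, 13 passed it in addition, 38 no longer passed it and 2 reversed. The 2 were those of Cacna1i in CA1, at -0.12 with the length trend removed and -0.10 with the replicate block and the length trend removed. In neurons the count of members at an unadjusted p under 0.05 was 10 with the replicate block, 10 with the block in DESeq2 and 5 with the block and the length trend removed, against 0 in the comparison of group means, and 0 to 1 when single libraries were left out. The neuron median of members was -0.052 to 0.52 when single libraries were left out, with -0.026 for scramble library 2. In CA1, where libraries of the same number did not deviate together, the replicate block left the count at 0. The CA1 count was 1 with the block in DESeq2, 1 with the block and the length trend removed, 2 with the length trend removed and 0 to 6 with single libraries left out. The CA1 median was -0.017 with the length trend removed and 0.09 to 0.33 with single libraries left out. Members higher in CA1 than in neurons numbered 3 with no filter, 8 with the length trend removed and 3 to 8 with single libraries left out in scramble libraries, and 8 with DESeq2, 7 with the length trend removed and 1 to 9 with single libraries left out in shBrpf1 libraries. The cause of these changes was not tested. With neuron libraries of number 2 left out (and, between tissues, CA1 scramble library 1 too), an alternative chosen after seeing the data, the neuron count stayed at 0 and 5 members were higher in CA1 than in neurons with either virus. The share of all genes called is not given here for that alternative or for the fit with no filter. Nor is it given for the CA1 block in DESeq2 or with the length trend removed. These counts therefore cannot be read against a background. Low-count members such as Scn9a, Cacna1f and Cacna1s had standard errors of 0.62 to 0.89 between tissues on the log2 scale.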
